A study of Mus musculus with 2 samples.

Results

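The genes described here make ribosomes and polyamines. They are 33 of the 31053 genes in the files and were chosen by symbol as a working set, in 6 roles. Earlier results of these data were known when they were chosen. The shares of all genes printed beside counts of members are therefore a description and not a test. The set comprises 4 enzymes of polyamine synthesis, 4 core proteins of the small nucleolar RNA particles, 3 nucleolar chaperones and scaffolds, 2 subunits of RNA polymerase I, and assembly factors of the large (11 genes) and the small ribosomal subunit (9 genes). They were followed in lung cells of wild-type C57BL/6 mice, sorted for PECAM1, a surface protein of endothelial cells. The control library came from mice given phosphate-buffered saline (PBS) through the tail vein and the metastatic library from mice given 200000 B16-F10 cells each, a mouse melanoma line labeled with a green dye, with all lungs taken after 6 h. Each group was 1 library of 2 pooled mice. The sort used no leukocyte gate that the labels name, and tail vein injection places melanoma cells directly in the lung capillaries, so it models the arrest of circulating cells and not their spread from a tumor.

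Ribosomes are built in the nucleolus. RNA polymerase I transcribes the ribosomal RNA precursor, small nucleolar RNAs guide its chemical modification, and a succession of assembly factors folds, cleaves and exports the 2 subunits. Polyamines (putrescine, spermidine and spermine) are small cations that bind RNA and are needed for translation, and Odc1 is the rate-limiting enzyme of their synthesis. Both groups of genes are textbook targets of the transcription factor Myc, and in resting endothelium, which seldom divides, the demand for new ribosomes is low.

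The libraries held 67929614 (control) and 64733724 (metastatic) unique molecular identifiers (UMIs), each standing for 1 captured RNA molecule. Cells were barcodes in which 1000 to 5000 genes had a UMI and mitochondrial UMIs made up less than 20%, which left 7134 and 6466, and 16 of these barcodes occurred in both libraries. Endothelial classes were assigned by marker genes. General capillary cells (gCap) numbered 5020 and 4519, aerocytes (aCap, the capillary cells that line the gas exchange surface) 1364 and 1086, vein cells 247 and 304, and artery cells 63 and 59. Further markers that did not define the classes were detected in a mean of 95.2% and 95.4% of gCap cells (gCap markers), 76.8% and 77.5% of aCap cells (aCap markers), 82.5% and 81.9% of vein cells and 72.6% and 74.2% of artery cells. The gCap markers were also detected in 93.1% and 92.9% of vein, 78.2% and 82.2% of artery and 65.8% and 65.4% of aCap cells, so they hardly separate gCap from vein cells. In gCap cells the vein markers were detected in 17.2% and 15.9%, the aCap markers in 40.4% and 41.0% and the artery markers in 50.9% and 54.8%. A median gCap cell held 5950.5 and 6275 UMIs. Levels are UMIs summed over the cells of a class, scaled to the same total for every class (CPM), with 95% Poisson intervals in parentheses, and ratios are on the log2 scale with 95% intervals that cover counting error only. Neither kind of interval includes the spread between cells. With 1 library in each group the variation between mice was not measured, and no test between the libraries was possible. Counts of genes therefore use a ratio of at least 1.3-fold among genes with at least 100 UMIs over both sides of a comparison.

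Members with a binding sequence for Myc near their start are shown first, because the sets of cells compared further on are defined by Myc. Myc and its partner Max bind the E-box CACGTG, which reads the same on both strands. In windows from 250 bases before to 50 bases after the RefSeq start (GRCm38.p6), CACGTG was found in 7 of the 27 members that had a window (25.9%), against 12.0% of the 8687 genes measured in gCap cells that had a window. Counted by window, it was in 7 of 31 member windows (22.6%) and in 7.15% of all 32851 windows. In the 250 bases before the start alone the shares were 6.45% and 6.02%, so that 5 of the 7 member sites lay after the start. Each site is printed on the strand of its gene, 5′ to 3′, with the E-box in capitals.
Nop2: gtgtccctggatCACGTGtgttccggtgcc
Tsr1: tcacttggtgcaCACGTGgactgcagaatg
Wdr43: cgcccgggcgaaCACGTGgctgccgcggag
Pes1: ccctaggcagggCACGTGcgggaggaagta
Ltv1: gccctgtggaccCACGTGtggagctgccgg
Utp20: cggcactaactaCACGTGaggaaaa
Sms: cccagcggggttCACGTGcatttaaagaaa
These stretches lie at chr6:125131811-125131840 (Nop2, plus strand), chr11:74898092-74898121 (Tsr1, plus), chr17:71616220-71616249 (Wdr43, plus), chr11:3963965-3963994 (Pes1, plus), chr10:13193092-13193121 (Ltv1, minus), chr10:88826765-88826789 (Utp20, minus) and chrX:157492466-157492495 (Sms, minus). The E-box began 60 and 196 bases before the start of Nop2 and Sms, and at base 25 of Tsr1, 18 of Wdr43, 3 of Pes1, 29 of Ltv1 and 38 of Utp20, counted from the start as base 1. The letters alone do not show that Myc was bound.

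Members were next compared between the libraries in gCap cells, the most numerous class, to ask whether capillary endothelium differed in these genes 6 h after the melanoma cells arrived. All 33 members had at least 100 UMIs there. Of these, 11 were at least 1.3-fold higher in the metastatic library and 0 lower, where 8.29% of all 11220 genes measured were higher and 4.6% lower. The ratio was above 0 for 31 members, with a median of 0.27 on the log2 scale, and the median of all genes was 0.02. Summed member UMIs came to 1643 CPM (control) and 1887 CPM (metastatic), a log2 ratio of 0.20 (0.18 to 0.22). The 31 members other than Ncl and Npm1 accounted for 26643 of 52746 member UMIs in control and 30967 of 57153 in metastatic gCap cells.

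Among the polyamine enzymes, Odc1 stood at 40.6 CPM (38.4–42.9) in control and 70.1 CPM (67.1–73.1) in metastatic gCap cells, a log2 ratio of 0.79 (0.69 to 0.89). Srm, which makes spermidine, stood at 10.4 CPM and 15.6 CPM, a log2 ratio of 0.58 (0.38 to 0.79). Both enzymes were higher in the metastatic library with intervals that did not overlap. Sms, which makes spermine, stood at 28.0 CPM and 34.4 CPM (log2 0.30), and Amd1, which supplies the aminopropyl donor, at 37.6 CPM and 47.6 CPM (log2 0.34). These 2 ratios excluded 0 but did not reach 1.3-fold. Amd1 has a near-identical copy, Amd2, that can share its reads (24.5 CPM and 32.6 CPM, log2 0.41), so the values of both are uncertain. Barcodes with 11 to 50 UMIs were taken to hold free RNA from broken cells. Odc1 stood there at 200 CPM (167–237, control) and 158 CPM (130–189, metastatic), more than in gCap cells of either library and with overlapping intervals. Srm stood there at 45.7 CPM and 43.9 CPM, likewise above its level in gCap cells.

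The assembly factors of the small subunit held the largest ratios of the set. Tsr1, a late factor of the small subunit, stood at 4.49 CPM (3.78–5.28) and 8.91 CPM (7.88–10.0), a log2 ratio of 0.99 (0.69 to 1.29). Bysl, needed for the cleavages that form the small subunit, stood at 7.23 CPM (6.33–8.22) and 13.7 CPM (12.4–15.1), a log2 ratio of 0.93 (0.69 to 1.16). Rrp12, an export factor with only 47 and 81 UMIs, had a log2 ratio of 0.87 (0.33 to 1.42). Each of these 3 genes was higher in the metastatic library beyond counting error. Free RNA held Tsr1 at 18.3 CPM (9.44–31.9, control) and 10.98 CPM (4.74–21.6, metastatic), on 12 and 8 UMIs. The control interval lay above that of control gCap cells, while the metastatic interval included the value of metastatic gCap cells. The free RNA intervals of the libraries overlapped, so their order was not resolved. Ltv1 (log2 0.50), Utp20 (0.40) and Rrp9 (0.39), a protein of the U3 particle, also passed 1.3-fold. Wdr43 (0.27), Heatr1 (0.15) and Nob1 (0.02), the nuclease that trims the small subunit RNA, did not.

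Of the 11 large subunit factors, 2 passed 1.3-fold. These were Nop16 (12.2 CPM and 16.7 CPM, log2 0.45, 0.26 to 0.65) and Bop1 (9.41 CPM and 12.5 CPM, log2 0.42, 0.19 to 0.64). Bop1, Pes1 and Wdr12 form 1 complex in the large subunit precursor, yet Wdr12 stood at 19.3 CPM and 21.1 CPM (log2 0.13, -0.03 to 0.29) and Pes1 at 32.8 CPM and 30.2 CPM (log2 -0.12, -0.25 to 0.01). For Wdr12 and Pes1 no difference was detectable at this depth. Gnl3 (nucleostemin), Ddx21 (an RNA helicase) and Nop2 (an RNA methyltransferase) each had a log2 ratio of 0.36, Mrto4 of 0.27, Rrs1 of 0.23, Nip7 of 0.13 and Rrp1b of 0.03.

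Among the core proteins of the small nucleolar RNA particles, Nop58 stood at 52.1 CPM (49.6–54.6) and 71.0 CPM (68.0–74.1), a log2 ratio of 0.45 (0.35 to 0.54). Its partners of the box C/D particle, the methyltransferase Fbl and Nop56, had log2 ratios of 0.22 and 0.21. The pseudouridine synthase Dkc1 had 0.15. The abundant nucleolar proteins Nolc1, Npm1 and Ncl had log2 ratios of 0.15, 0.11 and 0.07. Npm1 has processed copies in the genome that can share its reads. The RNA polymerase I subunits showed no detectable difference, with Polr1a at 13.0 CPM and 12.4 CPM (log2 -0.07, -0.27 to 0.14) and Polr1b at 5.36 CPM and 5.45 CPM (log2 0.02, -0.29 to 0.34).

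**Figure D1:**
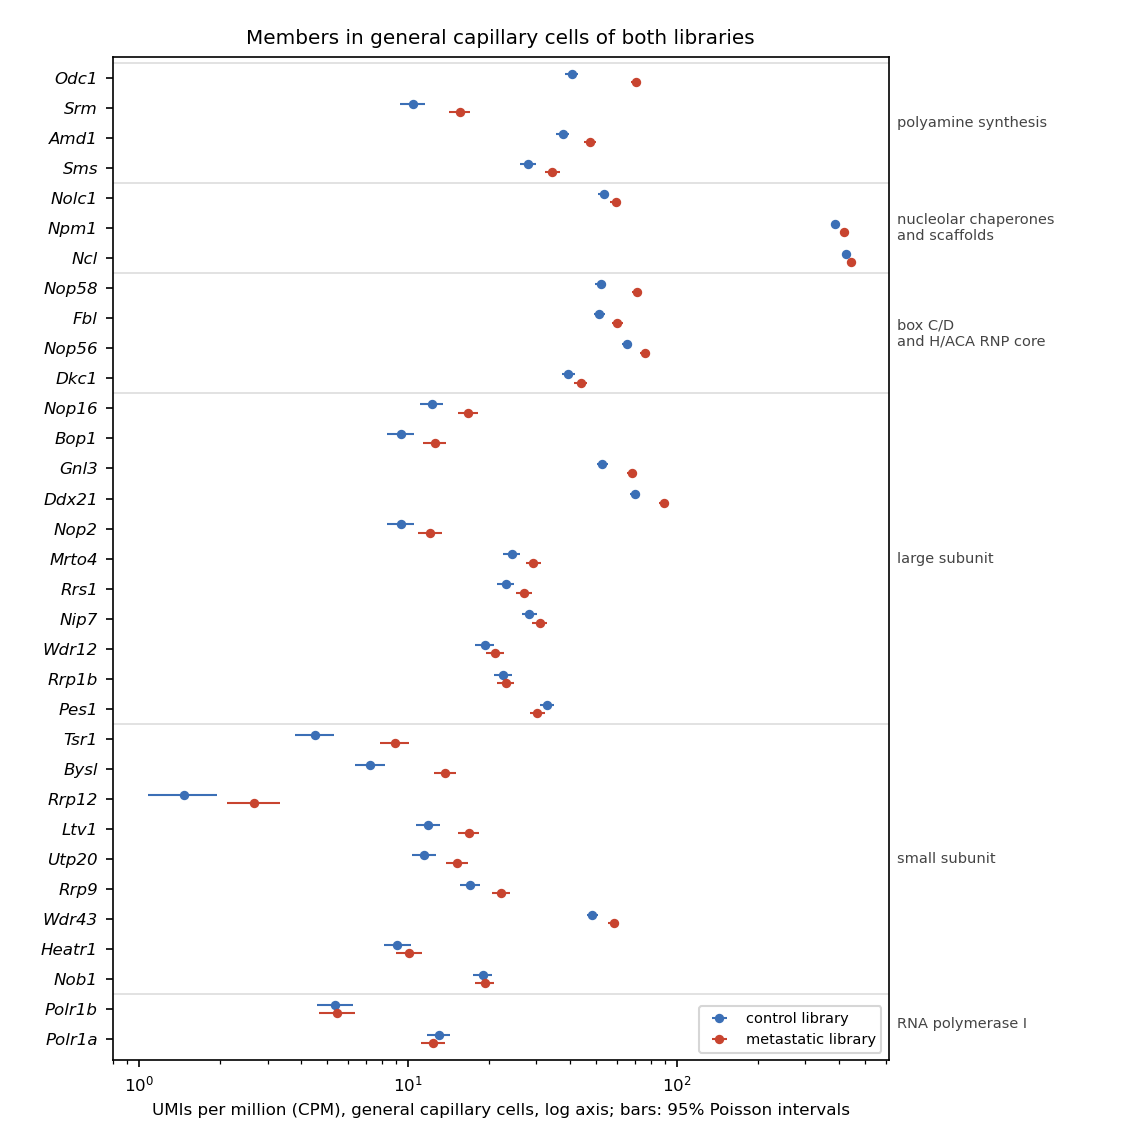
CPM of the 33 members in gCap cells (log axis) in the control library (blue) and the metastatic library (red), grouped by role, with 95% Poisson intervals. Odc1, Srm, Tsr1 and Bysl sit clearly to the right in the metastatic library, while the points of Polr1a, Polr1b, Nob1 and Rrp1b overlap.

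RNA of other cells was unequal between the libraries and its part in these ratios was not tested. The 4 erythroid markers summed to 1783 CPM in control and 744 CPM in metastatic gCap cells, the 4 epithelial markers to 1683 CPM and 990 CPM, the 7 lymphoid markers to 13.6 CPM and 24.7 CPM, and all of these genes were detected in both. The 8 melanoma markers summed to 4.70 CPM (Tyr at 0) and 7.53 CPM (none at 0), and the 6 cycling markers to 10.2 CPM and 12.5 CPM. In the barcodes of 11 to 50 UMIs the members summed to 3415 CPM (control) and 3538 CPM (metastatic), above their level in gCap cells of both libraries. When gCap cells with at least 2 detected markers of the same other cell type were left out, 1282 control and 1922 metastatic cells remained. Of 32 members, 15 were then at least 1.3-fold higher, with a median log2 ratio of 0.36. This exclusion included the lymphatic markers, which summed to 2928 CPM and 2281 CPM in gCap cells. With the lymphatic list not used, 11 of 32 members were higher (median 0.29). With only erythroid cells left out, 9 of 32 were higher (median 0.27). The same rule of at least 2 markers was used wherever cells with markers of a list were left out. When each cell was thinned to 2000 UMIs, 7 of 31 members passed and the median was 0.21.

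The same comparison was made in the other endothelial classes. In aCap cells 6 of 32 members were at least 1.3-fold higher in the metastatic library and 0 lower (background 7.07% and 3.68%), with a median log2 ratio of 0.19. Odc1 stood at 35.7 CPM and 53.7 CPM (log2 0.59, 0.40 to 0.78), Srm at 14.5 CPM and 21.1 CPM (0.54, 0.24 to 0.85) and Tsr1 at 4.68 CPM and 9.38 CPM (1.00, 0.49 to 1.52). These 3 genes were thus higher in the metastatic library in both capillary classes. Bop1 (0.65), Utp20 (0.46) and Polr1a (0.56, 0.16 to 0.97) were the others. Bysl stood at 20.2 CPM (17.7–23.0) in control and 20.9 CPM (18.1–24.0) in metastatic aCap cells, a log2 ratio of 0.05 (-0.24 to 0.33), and this interval lay below that of gCap cells. Rrp9, at 0.39 in gCap cells, was at -0.15 (-0.43 to 0.14) in aCap cells.

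Vein cells had 18 members with at least 100 UMIs, of which 1, Amd1 (log2 0.43, -0.07 to 0.94), was at least 1.3-fold higher and 1, Nop56 (-0.42, -0.78 to -0.06), lower, where 8.99% and 7.25% of all genes were. The median was 0.04. Odc1 stood at 51.2 CPM and 49.7 CPM, a log2 ratio of -0.04 (-0.42 to 0.33), which lay below the interval of gCap cells. The 63 and 59 artery cells allowed a ratio for Ncl (-0.17, -0.45 to 0.10) and Npm1 (-0.20, -0.49 to 0.09) and for no other member (0 of 2 past 1.3-fold in either direction, background 12.5% and 10.7%). Whether the libraries differed by class was not tested, since each class had 1 library in each group.

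**Figure D2:**
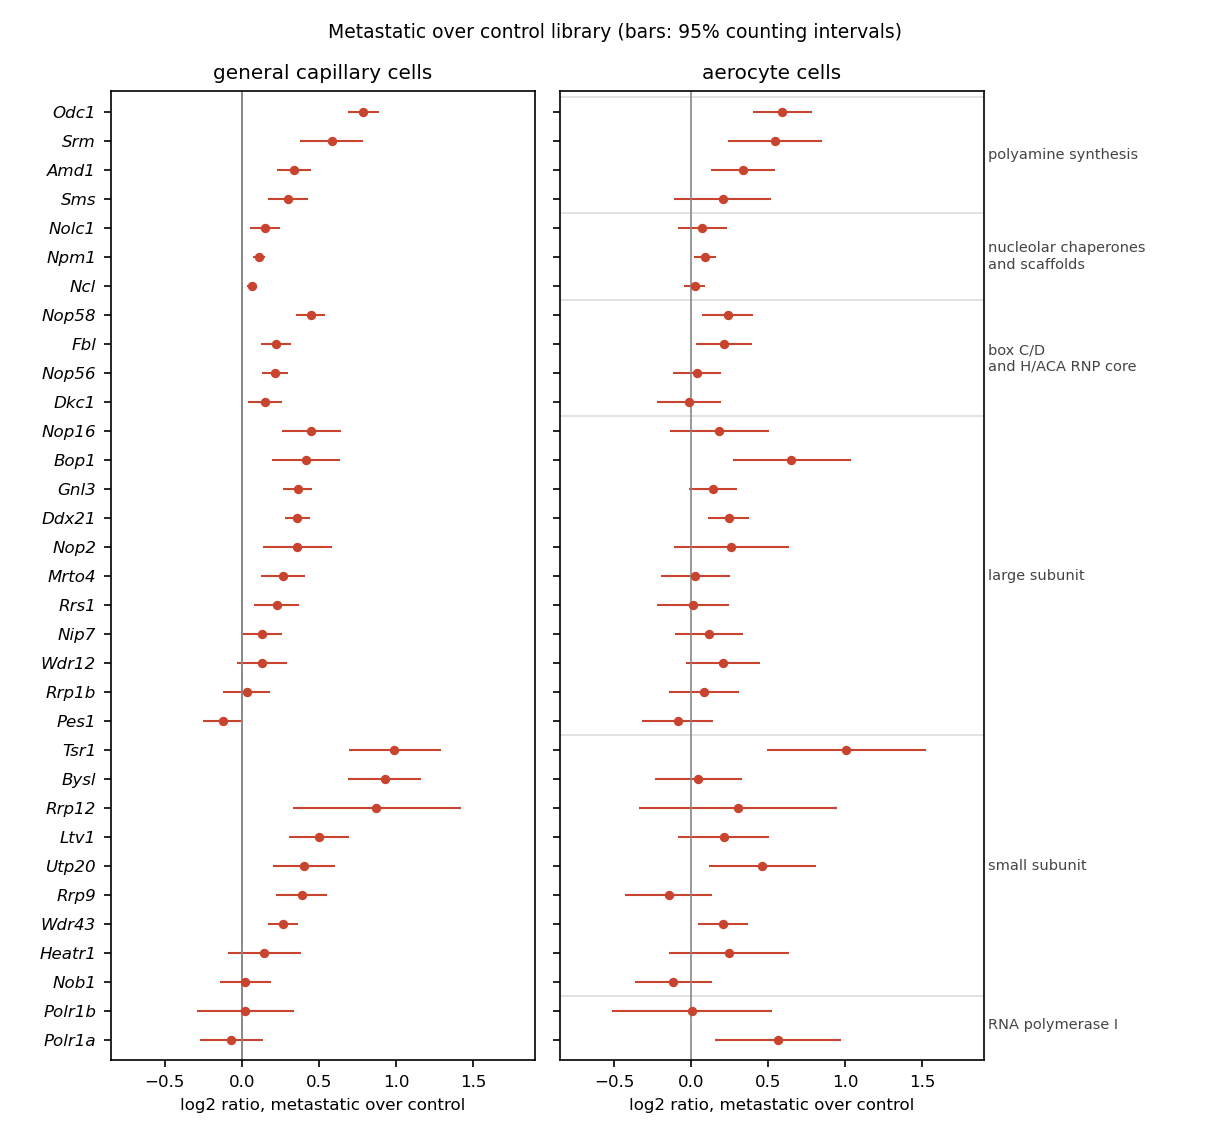
Log2 ratio of metastatic to control CPM for each member in gCap cells (left) and aCap cells (right), grouped by role, with 95% counting intervals and a vertical line at 0. Odc1, Srm and Tsr1 lie to the right of 0 in both classes, and Bysl lies at 0.93 in gCap cells and at 0.05 in aCap cells.

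The classes were also compared with each other within a library. In control cells 7 of 32 members were at least 1.3-fold higher in aCap than in gCap cells (background 15.9%) and 2 lower (background 18.7%), so the share of higher members was near that of all genes. The median log2 ratio was 0.19, whereas the ratio of summed UMIs had the opposite sign (-0.053, -0.078 to -0.029). Bysl was the highest, at 20.2 CPM in aCap and 7.23 CPM in gCap cells, a log2 ratio of 1.48 (1.21 to 1.75). Ltv1 (0.57), Nob1 (0.53), Srm (0.48), Rrp1b (0.47), Wdr12 (0.43) and Mrto4 (0.41) were the others, whereas Sms (-0.84, -1.08 to -0.61) and Polr1a (-0.65) were lower in aCap cells. Metastatic aCap cells had 6 of 33 members higher and 2 lower (background 16.1% and 18%), again near the background for higher members, and the ratio of Bysl was 0.60 (0.35 to 0.85). The median there was 0.10, the ratio of sums was -0.127 (-0.152 to -0.102), and the median turned to -0.0060 without cells that carried markers of other cell types, so the set as a whole had no stable direction between these classes. Vein cells lay near gCap cells in the control library, with 0 of 32 members at least 1.3-fold higher, 3 lower (background 12.9% and 21.6%) and a median log2 ratio of -0.05. Metastatic vein cells had 14 of 32 members lower than gCap cells and 0 higher (background 20.7% and 14.5%), with a median of -0.31. Odc1 stood at 49.7 CPM in vein and 70.1 CPM in gCap cells there (log2 -0.50, -0.76 to -0.24), and Nop56 at 46.7 CPM and 75.9 CPM (-0.70, -0.97 to -0.44).

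Cells with a detected UMI of Inhbb were examined next. Inhbb encodes a subunit of activin B and was used by the study as a marker of its reactive capillary cells, so a cell with Inhbb is selected partly by the response itself. Inhbb was detected in 116 of 5020 control gCap cells (2.31%, 1.91–2.77) and in 338 of 4519 metastatic gCap cells (7.48%, 6.73–8.29). At an equal depth of 2000 UMIs the shares were 0.849% and 3.59% (73 and 58 shallower cells left out). Lymphoid cells, which should lack this gene, had 0 of 46 and 0 of 49 cells with a UMI, at medians of 4776.5 and 4834 UMIs. The exact intervals of these counts allow shares of up to 7.71% and 7.25%. The control share in gCap cells lay below its limit, and the interval of the metastatic share included its limit. At 2000 UMIs the limits were 7.71% and 7.40%, above both gCap shares. With so few lymphoid cells, the shares in gCap cells could not be set firmly above background in either library.

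In the metastatic library, 28 of 32 members were at least 1.3-fold higher in gCap cells with Inhbb than in those without and 0 were lower, where 13.4% of all 10200 genes measured were higher and 19.2% lower. The median log2 ratio of the members was 0.99 and that of all genes -0.05. Summed member UMIs came to 3056 CPM with and 1769 CPM without Inhbb. The count was 28 of 32 again when cells with cycling markers, cells with erythroid markers or likely doublets were left out, and 26 of 28 at an equal depth of 2000 UMIs.

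Every role took part. Odc1 stood at 195 CPM (179–213) with and 57.5 CPM (54.7–60.4) without Inhbb, a log2 ratio of 1.77 (1.62 to 1.91), and Srm at 39.7 CPM and 13.2 CPM (1.59, 1.27 to 1.91). Both were far higher in the cells with Inhbb. Amd1, by contrast, stood at 43.7 CPM and 48.0 CPM (-0.13, -0.41 to 0.14), and Sms at 41.2 CPM and 33.7 CPM (0.29, -0.00 to 0.57). Of the 4 polyamine enzymes, a difference was thus resolved for Odc1 and Srm only. The interval of Sms allows a difference, and reads shared with Amd2 leave Amd1 uncertain. Rrp12 had 24 and 57 UMIs, too few to be counted, and a log2 ratio of 2.07 (1.31 to 2.78). Of the small subunit factors, all 8 with at least 100 UMIs passed, from Nob1 (0.46) to Tsr1 (25.3 CPM and 7.27 CPM, log2 1.80, 1.38 to 2.20). Of the large subunit factors, 9 of 11 passed, led by Gnl3 (153 CPM and 59.2 CPM, log2 1.37, 1.21 to 1.53), and Rrp1b (0.34) and Pes1 (0.30) did not. Nop58 (1.11), Fbl (0.94), Nop56 (0.67) and Dkc1 (0.40) of the small nucleolar RNA particles passed, as did Nolc1 (1.04), Ncl (0.59) and Npm1 (0.48). Polr1a (1.08, 0.68 to 1.47) and Polr1b (1.14, 0.52 to 1.72), which did not differ detectably between the libraries over all gCap cells, were also higher in cells with Inhbb.

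In the control library 13 of 32 members were at least 1.3-fold higher in cells with Inhbb and 6 were lower (background 13.2% and 18.2%), and the median log2 ratio was 0.19. Odc1 stood at 30.4 CPM with and 40.9 CPM without Inhbb, a log2 ratio of -0.43 (-1.04 to 0.12), and Srm, with 6 UMIs in the cells with Inhbb, at -0.64 (-2.09 to 0.50). Neither difference was detectable, and for both genes the interval lay below that of the metastatic library. Among the 13 were Nop2 (1.07, 0.27 to 1.77), Nop16 (0.84), Ddx21 (0.58) and Gnl3 (0.49). The 6 cycling markers summed to 116 CPM with and 7.24 CPM without Inhbb in the control library, against 5.42 CPM and 13.2 CPM in the metastatic library, and the epithelial markers to 5166 CPM and 1584 CPM in control and 3010 CPM and 787 CPM in metastatic cells. Melanoma markers summed to 11.6 CPM with Inhbb (Tyrp1, Tyr and Slc45a2 at 0) and 7.12 CPM without in the metastatic library. Without cells that carried markers of other cell types, 5 of 23 members were higher in the control (median 0.04) and 27 of 31 in the metastatic cells.

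Set against each other between the libraries, gCap cells with Inhbb had summed member UMIs of 1813 CPM (control) and 3056 CPM (metastatic), a log2 ratio of 0.75 (0.68 to 0.83) over all 33 members. Cells without Inhbb had 4 of 33 higher and 0 lower (background 7.53% and 4.36%) and a median of 0.14. The 4 were Odc1 (0.49, 0.38 to 0.60), Bysl (0.81, 0.56 to 1.06), Tsr1 (0.67, 0.35 to 0.99) and Rrp12 (0.52, -0.07 to 1.12). Bop1, at 0.38, lay just below that fold, and Rrp12 has the fewest UMIs of the set. Split by Myc in the same way, the sums were 2581 CPM (control) and 4351 CPM (metastatic) in cells with Myc (0.75, 0.63 to 0.88). Among cells without Myc, 6 of 33 members were higher in the metastatic than in the control library (background 7.73%, median 0.19). These comparisons use the same cells as the others and are not independent of them.

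Myc itself was compared as the second way to split the cells. It stood at 0.966 CPM in control and 6.27 CPM in metastatic gCap cells, a log2 ratio of 2.70 (2.15 to 3.30), and was detected in 25 of 5020 (0.498%, 0.323–0.734) and 110 of 4519 cells (2.43%, 2.00–2.93). At 2000 UMIs the shares were 0.162% and 1.10%. Lymphocytes transcribe Myc, and 3 of 46 and 4 of 49 lymphoid cells had a UMI, so they give no background for this gene. Free RNA held Myc at 15.2 CPM (control, 7.30–28.0) and 15.1 CPM (metastatic, 7.54–27.0), on 10 and 11 UMIs, which is above its level in all gCap cells of either, so a single Myc UMI in a cell cannot be told apart from free RNA. Inhbb stood there at 9.14 CPM and 9.61 CPM. Of 32 members, 30 were at least 1.3-fold higher in metastatic gCap cells with Myc and 0 lower (background 18.6% and 34.5%), and the median log2 ratio was 1.29 against -0.14 for all genes. Summed member UMIs came to 4351 CPM with and 1810 CPM without Myc.

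Of these 32 members Odc1 had the largest ratio, with 411 CPM (370–455) in cells with Myc and 59.5 CPM (56.8–62.4) in those without, a log2 ratio of 2.79 (2.62 to 2.95). Tsr1 followed (41.7 CPM and 7.90 CPM, 2.40, 1.87 to 2.90), then Srm (68.1 CPM and 13.96 CPM, 2.29, 1.88 to 2.67), Nop16 (1.91) and Gnl3 (1.85). All 5 were higher with Myc by intervals far above 0. Ncl, which differed by only 0.07 between the libraries, had 891 CPM with and 432 CPM without Myc (1.04, 0.94 to 1.15). Pes1 (0.27, -0.28 to 0.77) and Amd1 (-0.23, -0.75 to 0.24) were the 2 that did not pass, both with intervals across 0. In the 25 control cells with Myc, 22 of 32 members were higher and 2 lower (background 24.7% and 33%), with a median of 0.67. Odc1 stood at 87.4 CPM (54.1–134) with and 40.3 CPM without Myc there.

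Other cells' RNA differed between these sets as well. The 7 lymphoid markers summed to 254 CPM with and 11.8 CPM without Myc in the control library (Cd3e, Cd3d and Trac at 0 with Myc), and to 125 CPM and 21.6 CPM in the metastatic library (none at 0). Cycling markers summed to 433 CPM and 7.06 CPM in the control but to 13.2 CPM and 12.5 CPM in the metastatic library. In metastatic cells with and without Myc the epithelial markers summed to 96.6 CPM (Epcam at 0) and 1018 CPM, the erythroid markers to 198 CPM (Alas2 at 0) and 761 CPM, and the lymphatic markers to 4099 CPM (Prox1 at 0) and 2225 CPM. Platelet markers summed to 562 CPM and 172 CPM in the control library. Melanoma markers summed to 12.1 CPM and 7.39 CPM in the metastatic library, with Pmel, Mlana, Tyr, Slc45a2 and Sox10 at 0 in the cells with Myc. The part of these RNAs in the ratios was not tested. Without cells that carried markers of other cell types the counts were 10 of 23 members in the control and 29 of 31 in the metastatic library.

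**Figure D3:**
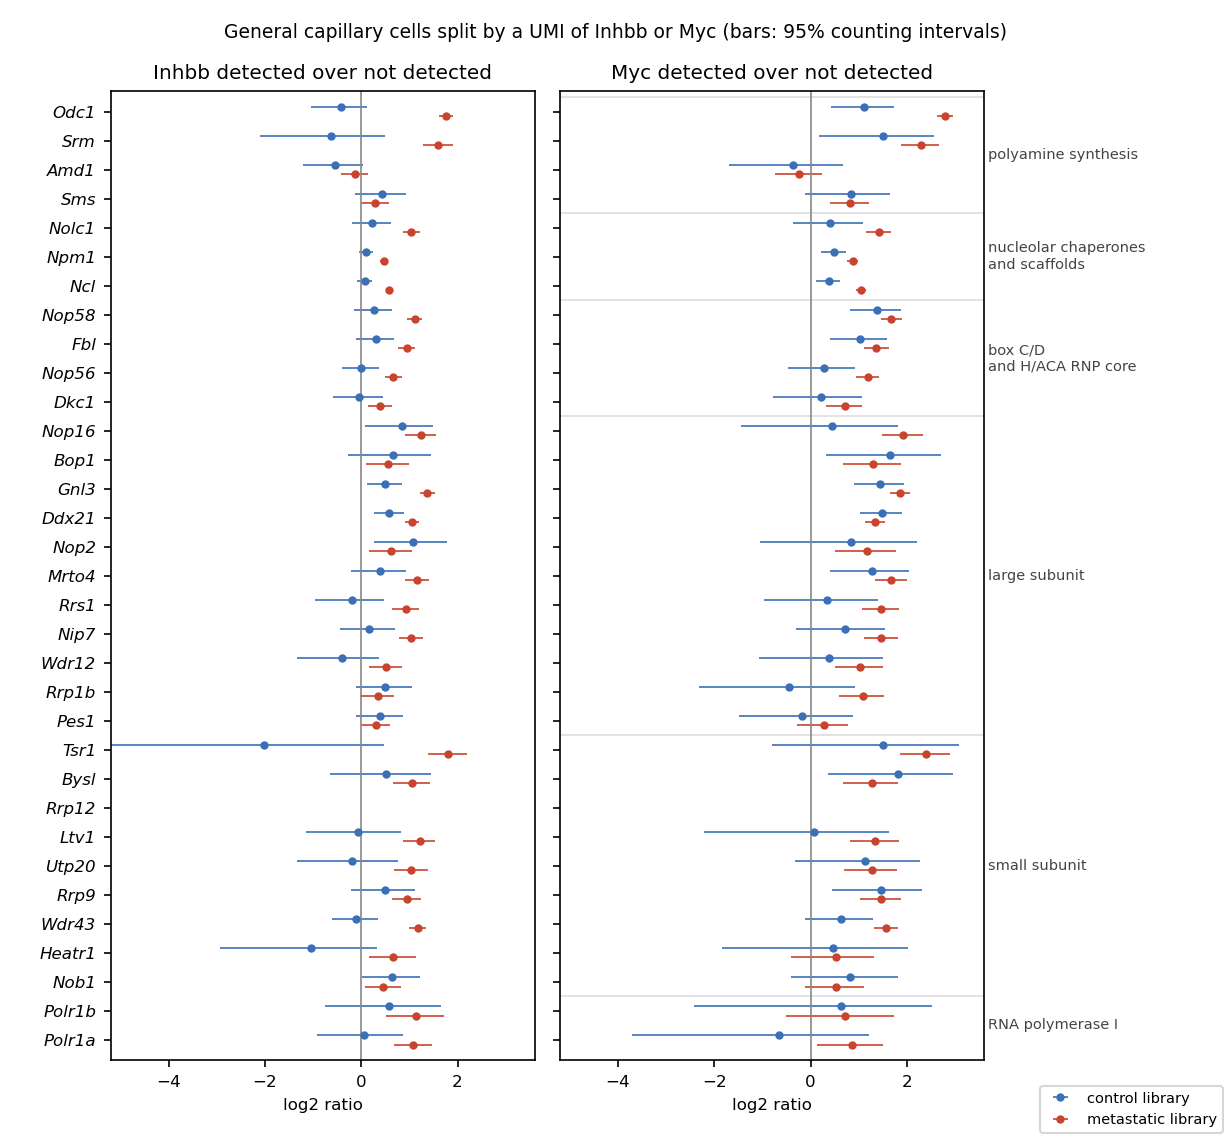
Log2 ratio of member CPM in gCap cells with a UMI of Inhbb (left) or Myc (right) over gCap cells without one, in the control library (blue) and the metastatic library (red), with 95% counting intervals and members of at least 100 UMIs. In the metastatic library 28 members (Inhbb) and 30 members (Myc) lie at least 1.3-fold above 0, while Amd1 does not, and the control intervals are wide (that of Tsr1 for Inhbb, with 1 UMI, runs past the axis to -7.34).

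In metastatic gCap cells the level of the set was higher with more Inhbb or Myc UMIs in a cell. Metastatic gCap cells with 0, 1 and 2 or more Inhbb UMIs (4181, 186 and 152 cells) had 939 CPM (927–950), 1294 CPM (1237–1353) and 2514 CPM (2428–2603) of the 31 members other than Ncl and Npm1. Odc1 stood at 57.5, 100.0 and 308 CPM in the same cells. With 0, 1 and 2 or more Myc UMIs (4409, 67 and 43 cells) the 31 members stood at 970, 2128 and 3546 CPM and Odc1 at 59.5, 298 and 571 CPM. At every step of the metastatic library the interval lay above that of the step before, for counting error only and without the spread between cells. In the control library the steps of Inhbb (4904, 88 and 28 cells) gave 826, 909 and 1088 CPM of the members and 40.9, 29.9 and 32.0 CPM of Odc1, so Odc1 showed no such order. The control steps of Myc (4995, 19 and 6 cells) gave 825, 1369 and 1786 CPM of the members and 40.3, 106 and 42.9 CPM of Odc1, the last on 3 UMIs, and Odc1 again had no such order.

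**Figure D4:**
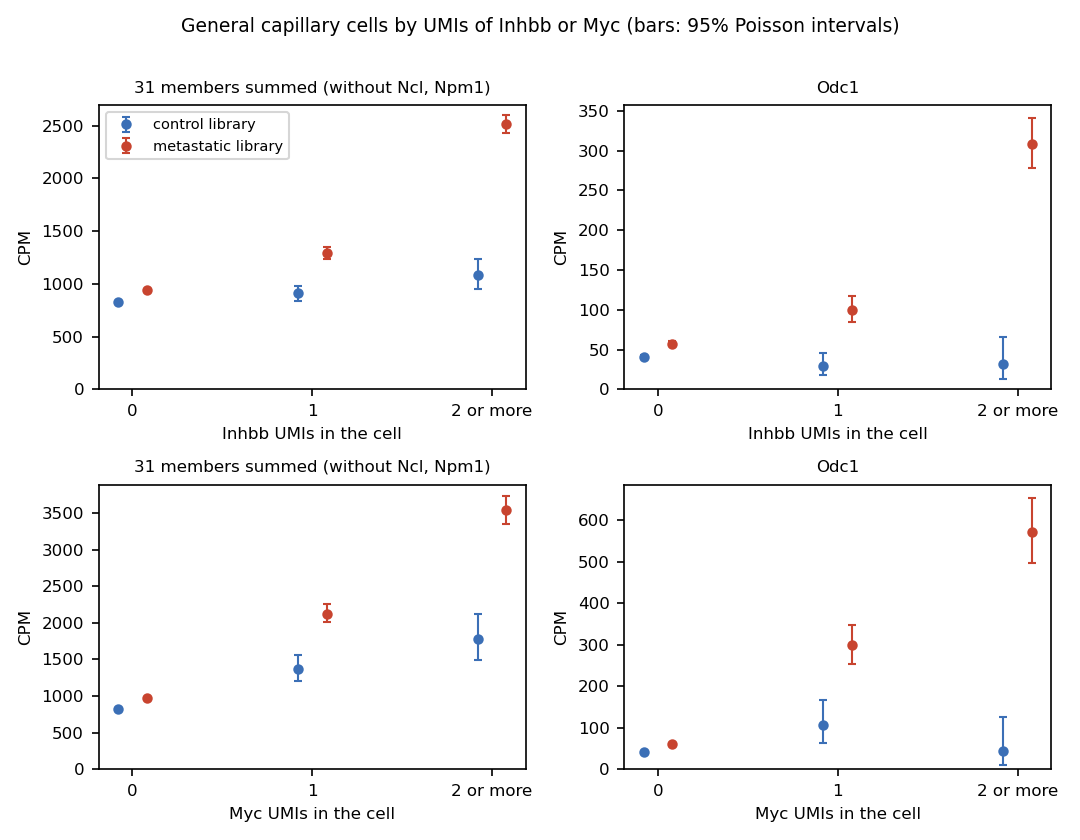
CPM of the 31 members without Ncl and Npm1 (left) and of Odc1 (right) in gCap cells with 0, 1 and 2 or more UMIs of Inhbb (top) or Myc (bottom), in the control library (blue) and the metastatic library (red), with 95% Poisson intervals and axes from 0. Odc1 reaches 308 CPM and 571 CPM in the last step of the metastatic library and stays between 29.9 and 40.9 CPM over the Inhbb steps of the control library.

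Inhbb and Myc marked overlapping cells. Both were detected in 58 metastatic gCap cells, 52.7% of those with Myc and 17.2% of those with Inhbb, and in 7 control cells (28% and 6.03%). Summed member UMIs came to 1745 CPM (1730–1761) in the 4129 metastatic cells with neither, 2574 CPM (2509–2641) in the 280 with Inhbb alone, 3213 CPM (3049–3384) in the 52 with Myc alone and 5439 CPM (5229–5655) in the 58 with both. Odc1 stood at 54.4, 120, 247 and 567 CPM in the same order. Each set lay above the one before it with no overlap of intervals. Cells with Inhbb alone had 23 of 32 members at least 1.3-fold above cells with neither (background 12.2%), with a median log2 ratio of 0.80. A cell without a Myc UMI can still hold Myc RNA, so this set was not shown to lack Myc. With Myc alone 27 of 32 passed (background 19.8%) and 1 was lower (background 32.2%), and with both 30 of 32 passed and 0 were lower (background 21.6% and 42.3%). Median depth was 6168 UMIs with neither, 6993.5 with Inhbb alone, 7801.5 with Myc alone and 7606 with both. In the control library the 109 cells with Inhbb alone had 1734 CPM (1645–1827) and the 4886 with neither 1633 CPM (1619–1648), and 10 of 32 members passed (background 13.2%).

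At the level of single cells, the 31 members other than Ncl and Npm1 were counted after each gCap cell had been thinned to 2000 UMIs. Cells with 6 or more member UMIs formed 1.29% (0.998–1.65) of control and 3.97% (3.41–4.58) of metastatic gCap cells, with means of 1.65 and 2.00 member UMIs per cell (SD over cells 1.38 and 1.93). Such cells were 21.7% (17.4–26.4) of those with Inhbb, 35.5% (26.6–45.1) of those with Myc and 2.52% (2.07–3.05) of those without Inhbb in the metastatic library. Metastatic cells with Inhbb ranged from 0 member UMIs at the 5th to 12 at the 95th percentile, and those without from 0 to 5, so the cells with Inhbb were not uniform. In the control library 3.48% (0.956–8.67) of cells with Inhbb and 1.24% without reached 6 member UMIs.

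**Figure D5:**
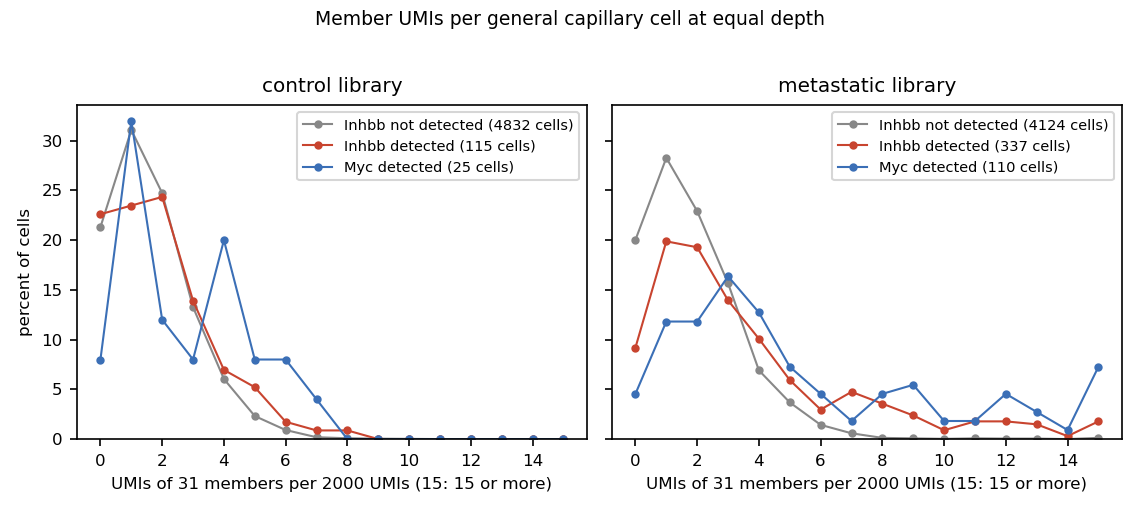
Percent of gCap cells (vertical axis) by the number of UMIs of 31 members after thinning each cell to 2000 UMIs (horizontal axis, the last point standing for 15 or more), for cells without Inhbb (grey), with Inhbb (red) and with Myc (blue) in the control library (left) and the metastatic library (right). In the metastatic library the red and blue lines run out to 15 while the grey line is near 0 beyond 8.

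The remaining genes of the pathways were counted from lists. Between the libraries in gCap cells, 5 of 45 other small subunit processome genes were at least 1.3-fold higher (median log2 0.11), 5 of 46 other large subunit assembly genes (0.14), 4 of 15 other genes of the small nucleolar RNA particles (0.19), 1 of 18 other RNA polymerase I genes (0.08) and 0 of 12 export and late factors (-0.01), with 0 lower in each list. Of all genes 8.29% were higher and 4.6% lower, and the shares of the lists other than that of the small nucleolar RNA particles were near or below the former. The most different were Nat10, an RNA acetyltransferase (3.58 CPM and 6.24 CPM, log2 0.80), Rcl1 (0.68), Noc3l (0.66), Mdn1 (0.52), Znhit6 (0.62) and Nhp2 (0.50), with Polr1e at 0.42. Nepro (-0.13), Rrp36 (-0.13), Ddx56 (-0.19), Ddx50 (-0.09), Znhit3 (-0.20), Rpap3 (-0.07), Polr1c (-0.10), Taf1c (-0.09), Riok3 (-0.22) and Sbds (-0.13) were the lowest of their lists, and Polr2h (0.32), Xpo1 (0.21) and Tsr2 (0.16) were among the highest. In metastatic cells with Inhbb against those without, 25 of 45, 28 of 46, 5 of 15, 5 of 18 and 6 of 12 were higher, in the same order of lists, with medians of 0.43, 0.47, 0.21, 0.21 and 0.37, beside 13.4% of all genes.

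The products that these factors assemble were counted in the same way (backgrounds 8.29% between the libraries and 13.4% with Inhbb). Of 82 cytosolic ribosomal protein genes with at least 100 UMIs, 1 was at least 1.3-fold higher between the libraries (Rpl9-ps6, a pseudogene, 0.43) and the median was -0.01, and 2 of 82 were higher in metastatic cells with Inhbb (median 0.02). Rps27l (0.18), Rpl35 (-0.10) and Rpl10 (-0.08) mark the range. Mitochondrial ribosomal proteins had 2 of 77 higher (median 0.03), Mrps6 (0.54) and Mrpl17 (0.38), with Mrps34 (-0.21) and Mrpl3 (-0.21) lowest. The list of translation factors, which also holds the kinase Eif2ak3, had 0 of 28 higher between the libraries (median 0.05). Its ratios ran from Eif2ak3 (-0.28) and Eif4h (-0.12) to Eif1ax (0.12) and Eif1a (0.18). In metastatic cells with Inhbb 7 of 28 were higher (median 0.23).

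Of 16 further polyamine genes with at least 100 UMIs, 3 were at least 1.3-fold higher between the libraries and 0 lower (median 0.07, background 8.29% and 4.6%). They were the arginine transporter Slc7a1 (7.54 CPM and 10.6 CPM, log2 0.49, 0.25 to 0.74), the methionine salvage enzyme Mtap (16.5 CPM and 23.1 CPM, 0.49, 0.32 to 0.65) and Amd2. Eif5a, the translation factor modified with spermidine, stood at 235 CPM and 269 CPM (0.20), and Atp13a3, a polyamine transporter, at 14.7 CPM and 17.4 CPM (0.24). The antizymes that inhibit Odc1, Oaz1 (0.04) and Oaz2 (0.17), the antizyme inhibitor Azin1 (0.08), the catabolic enzymes Sat1 (-0.03), Smox (0.07) and Paox (-0.23), and Mat2a (-0.15), Atp13a2 (-0.12), Dhps (0.02), Dohh (-0.00) and Slc3a2 (0.13) did not pass. In metastatic cells with Inhbb, Atp13a3 (1.72), Slc7a1 (1.47), Eif5a (0.62), Smox (0.59), Mtap (0.52) and Azin1 (0.39) were higher by at least 1.3-fold and Paox (-1.11) and Amd2 (-0.40) lower, which is 6 and 2 of 16 against 13.4% and 19.2% of all genes. Agmat had no UMI, and Arg1, Arg2, Azin2 and Sat2 had fewer than 50 in gCap cells.

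In the Myc network, 2 of 14 genes were at least 1.3-fold higher and 2 lower (median log2 -0.00), where 8.29% and 4.6% of all genes were, so that each share rests on 2 genes. Mycn stood at 2.77 CPM and 5.74 CPM (1.05, 0.67 to 1.44), beside Myc. The lower genes were Mxd4, which competes with Myc for Max (990 CPM and 622 CPM, -0.67, -0.70 to -0.64), and Mlxip (58.0 CPM and 35.0 CPM, -0.73). Mxi1, of the same family as Mxd4, was at 0.30, and Max (0.06), Mnt (0.03), Mxd1 (-0.03), Mga (-0.03), Mlx (-0.17), Bptf (-0.01), Trrap (0.00), Fbxw7 (0.06) and Zbtb17 (-0.14) differed little. In metastatic cells with Inhbb, Mxi1 (-0.98) and Mxd4 (-0.46) were at least 1.3-fold lower. They are no larger a share of the list than the 19.2% of all genes that were lower there. Mxd1 (-0.29), Mnt (-0.22) and Mga (-0.14) did not reach that fold, and Myc was higher (3.62). Mycl, Mlxipl and Mxd3 had too few UMIs. Myc targets outside the nucleolus had 4 of 30 higher between the libraries (median 0.19, background 8.29%), led by the cyclin Ccnd2 (0.59) and the pyrimidine enzyme Cad (0.51), with Hspa9 (-0.03) and Mthfd1 (-0.02) lowest, and 17 of 28 higher in metastatic cells with Inhbb (median 0.57, background 13.4%).

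Targets of p53, which nucleolar stress can activate, had 1 of 13 higher and 2 lower (median 0.03), near the background of 8.29% for higher genes and, on 2 genes, above that of 4.6% for lower ones. Phlda3 was at 0.59 and Bbc3 at 0.35, and Cdkn1a (1759 CPM and 1181 CPM, -0.57) and Trp53inp1 (-0.40) were lower. Of the non-coding hosts of small nucleolar RNAs, 7 of the 18 listed were matched, and 2 of these were higher (background 8.29%): Mir17hg (0.83), listed with them but a host of microRNAs and a Myc target, and Snhg9 (0.44), with Snhg6 (-0.22) and Snhg18 (-0.12) lowest.

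Features of the sequence were also counted, each held by a minority of the members. On the GENCODE M21 annotation of GRCm38, 8 of the 33 members (24.2%) hold a small nucleolar RNA gene on the same strand, against 208 of 11212 genes measured in gCap cells (1.86%). These hosts are Odc1, Ncl, Nop56, Nop58, Wdr43, Gnl3, Dkc1 and Tsr1. Nop56 holds 5 such genes and lies at chr2:130274430-130279313, and Nop58 holds 4 and lies at chr1:59684971-59719044. The 8 hosts had a median log2 ratio of 0.32 between the libraries and 1.14 with Inhbb, and the other members 0.27 and 0.94. Of the members with a window, the 7 with CACGTG had medians of 0.36 and 1.04, and the 20 without 0.18 and 1.04. The intronic RNAs themselves were not measured by this assay.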

How the data were processed

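PECAM1-sorted lung cells of a control and a metastatic library were analyzed (1 library of 2 pooled mice each). The deposited values are raw UMI counts per gene and barcode, which the authors made with Cell Ranger on mm10 with no cell calling or normalization; per the file headers the version was 3.1.0. Barcodes with 1000 to 5000 genes and under 20% mitochondrial UMIs were kept (the mitochondrial limit removed 2 and 0). A class needed at least 2 of its rule markers. Doublets were kept in the main values and left out in an alternative. UMIs were summed by class and given as CPM with exact Poisson intervals. Ratios carry exact conditional binomial intervals and shares Clopper-Pearson intervals, all at 95% and for counting error only, and were checked on simulated data. No test between groups was possible. The members and gene lists were chosen with earlier results of these data known. Named genes are every member, the 2 highest and 2 lowest of each list, and all genes of the polyamine and Myc network lists. Python 3.11.15, numpy 2.4.6, scipy 1.17.1 and, for TMM factors, edgeR 4.0.16 were used. Promoter windows are from RefSeq (GRCm38.p6), with no window for 6 members, and gene positions from GENCODE M21.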

Additional observations from a re-analysis of the deposited data

Results flagged for a closer look

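Nop56 had ratios of opposite sign between the libraries in 2 endothelial classes. Its log2 ratio of metastatic to control was 0.21 (0.13 to 0.30) in gCap cells and -0.42 (-0.78 to -0.06) in vein cells, both intervals excluding 0. The difference between the classes was not tested.

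Barcodes that passed the cell filter but met no class rule were used in no comparison, and their members summed to 2010 CPM (1950–2071) in the 394 control barcodes and 2858 CPM (2791–2925) in the 466 metastatic barcodes. The metastatic value lay above the control value. These barcodes held much RNA of other cells: epithelial markers summed to 17556 CPM in control and 14408 CPM in metastatic barcodes, and myeloid markers to 8820 CPM and 6759 CPM.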

How the results depend on the processing

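Of 235 values recomputed under alternatives, 202 stayed within the spread allowed by counting (counts of members within 1.5 times), 31 moved, and 2, both medians of metastatic aCap over gCap cells, changed sign beyond it. Members higher in gCap cells of the metastatic library were 4 of 33 at 1.5-fold. At a depth of 2000 UMIs 7 of 31 were at least 1.3-fold higher, the median was 0.21 and the ratio of sums 0.13. That ratio was 0.18 with TMM, without other cell types (lymphatic list not used) and without erythroid cells. Without other cell types (all lists) the median was 0.36 and Odc1 0.94. With 5% of the free RNA profile subtracted, Odc1 was 1.02. In aCap cells the median was 0.090 at a minimum of 500 UMIs and 0.12 without erythroid cells. For aCap over gCap cells it was 0.13 (control) and 0.050 (metastatic) with mitochondrial and ribosomal protein genes out of the total, and in the metastatic library 0.026 without erythroid cells, -0.0060 without other cell types and -0.0077 with the lymphatic list not used. For Inhbb in the control library the median was 0.47 at 2000 UMIs and 0.043 without other cell types. Its count, 13 of 32 in the main values, was 8 of 21 at 500 UMIs and 4 of 32 at 1.5-fold. It was 5 of 23 without other cell types and 6 of 27 with the lymphatic list not used. For Inhbb in the metastatic library the median was 1.16 at 2000 UMIs, 0.84 without other cell types (lymphatic list not used) and 0.92 without erythroid cells. For Myc in the metastatic library it was 1.42 without doublets, 1.41 with TMM, which shifted all genes by 0.12, 1.17 at 2000 UMIs and 1.42 without other cell types (lymphatic list not used). For Myc in the control library it was 0.31 without other cell types. The count, 22 of 32 in the main values, was 10 of 23 there and 13 of 21 at 500 UMIs. Within counting error, the vein median (0.039) was below 0 under 4 alternatives, at -0.016 (a minimum of 300 genes, and the lymphatic list not used), -0.043 (without erythroid cells) and -0.058 (2000 UMIs), and the artery median (-0.19) was 0.020 at 20 UMIs. The cause of these shifts was not tested. Alternatives on lymphatic markers, cycling and erythroid cells, the fixed 5% and the counts by Inhbb and Myc were added after the data had been seen. Subtraction of free RNA at an estimated share was not run because the estimates ran from 26.3% to 371%. At the highest, Sftpc in the control library, gCap cells held the gene at a larger share than the barcodes of 11 to 50 UMIs. How well those barcodes stand for the free RNA in cells was not tested. Thinning left 8 control cells with Myc, too few for a median, and no artery value. No paired analysis was possible because each group held 1 library.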
